A study of Drosophila melanogaster with 33 samples.

Results

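The 78 genes described here were those whose transcript level, relative to the matching control, ranked among the 500 highest of 4755 genes in brains labelled Atx2 RNAi and again among the 500 highest in S2 cells labelled Atx2 RNAi. Atx2 encodes Ataxin-2, an RNA-binding protein of neurons and other cells that takes part in mRNA translation, mRNA stability and the assembly of RNP granules. The genes were chosen by the measured values themselves. Each level is the count of reads assigned to a gene, scaled to the same total of gene counts in every library (CPM), and the 4755 genes were those with a mean of 10 CPM or more in all 4 groups, out of 16727 genes counted. The log2 ratio of mean CPM, RNAi over control, was taken in each experiment, 97 genes ranked among the 500 highest in both, and 19 of these were left out by their symbols. The omitted genes were 16 cytoplasmic ribosomal protein genes (symbols beginning with RpL or RpS) and 3 mitochondrial ones (mRp). The 97 genes made up 19.4% of each list.

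Poly(A) RNA was sequenced from 4 groups of 3 libraries. Brains labelled Atx2 RNAi came from adult flies that carried elav-Gal4, tub-Gal80ts and UAS-Atx2-RNAi, and Gal4 control brains from flies with the elav-Gal4 driver and no RNAi transgene. The elav driver is active in postmitotic neurons, so expression of the hairpin was directed to neurons and not to glia or other cells of the dissected tissue. The RNAi flies were reared at 18 °C and moved to 29 °C for 5 days as adults, and each library pooled 10 to 12 brains. S2 cells (S2R+ in the study's methods), an embryonic Drosophila line with features of hemocytes, were grown at 25 °C and transfected with double-stranded RNA against Atx2 or, in mock cells, against GFP. The labels call the libraries replicates without saying whether cultures or pools were prepared separately, so p-values measure the spread between these libraries. In 12 further libraries Atx2, whole (WT) or lacking a domain, had been fused to the part of ADAR that edits RNA and expressed in adult neurons (TRIBE, in which a fused editing enzyme marks the transcripts a protein binds), and the deposited lists hold edited positions.

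The transcript of the targeted gene went against the label in S2 cells and was lower in brain without passing the test. Atx2 stood at 224.7, 267.9 and 275.7 CPM in the brains labelled Atx2 RNAi, against 258.0, 291.0 and 292.4 CPM in Gal4 control brains, and the groups overlapped (log2 fold change -0.34, SE 0.12, edgeR adjusted p = 0.0584). It stood at 1008, 687.6 and 844.0 CPM in the S2 libraries labelled Atx2 RNAi, against 227.6, 225.1 and 229.7 CPM in mock cells, so it was higher, not lower, in the libraries labelled for its knockdown (log2 fold change 1.88, SE 0.085, edgeR adjusted p = 5.30e-11). Whether reads from the introduced double-stranded RNA entered this count was not tested. RNA libraries hold no measure of Atx2 protein, so these counts alone do not show whether the knockdown took place. All directions below are therefore those of libraries labelled Atx2 RNAi. The gene w, the usual marker of fly transgenes, stood at 427.8 to 719.6 CPM in the brains labelled RNAi and at 68.09 to 72.07 CPM in the control brains. Between 11169973 and 16108727 counts per library were assigned to genes. Gal4 control replicate 1 stood apart, with 22.01% of its reads outside annotated features and 11.18% mapped to several places, against at most 14.36% and 1.77% in the other brain libraries. Without that library the same rule gave 78 genes, 67 of them among the 78 described here.

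The 78 genes include enzymes of the pentose phosphate pathway, of NADPH production and of glutathione chemistry. The pentose phosphate pathway turns glucose 6-phosphate into NADPH and ribose, and its nonoxidative branch returns the sugars to glycolysis. NADPH keeps glutathione reduced, and glutathione transferases, superoxide dismutase and catalase use or complement this supply in the defence against electrophiles and peroxides. A further set works in the endoplasmic reticulum, where secreted and membrane proteins enter through the Sec61 channel, lose their signal peptides, are glycosylated and fold with the help of chaperones.

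All 78 log2 ratios were positive in both experiments, as the choice of genes required. The ratio ran from 0.78 to 3.29 in brain (1.72-fold to 9.79-fold, median 1.06 or 2.08-fold) and from 0.19 to 0.67 in S2 cells (1.14-fold to 1.59-fold, median 0.25 or 1.19-fold). The ratio was larger in brain for every member, which the choice of genes had nearly fixed. The lowest ratio in the brain list was 0.779, against 0.186 in the S2 list. In S2 cells the 0.667 of Hsp23, below that brain limit, already ranked 5 among the 4755 genes. The larger brain ratio is therefore no separate finding about the members. In brain 43 members were more than 2-fold higher and 7 more than 4-fold higher, whereas in S2 cells 32 were more than 1.2-fold higher. The median over all 4755 genes was 0.22 in brain and -0.003 in S2 cells. Relative to these medians the members lay 0.56 to 3.07 above in brain and 0.19 to 0.67 above in S2 cells.

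**Figure D1:**
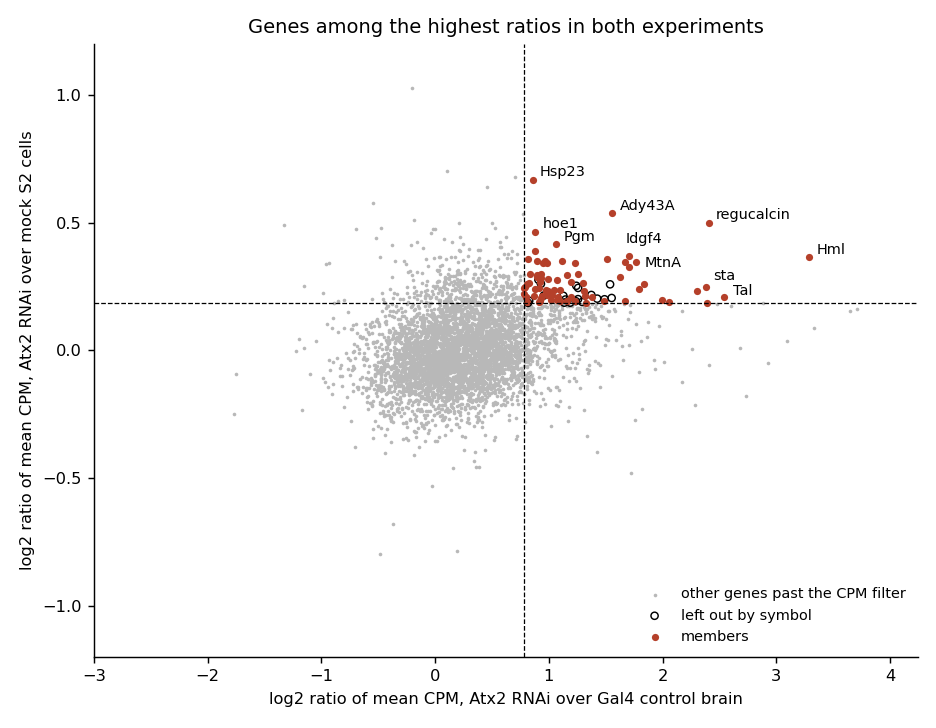
Log2 ratio of mean CPM in brain (RNAi over Gal4 control, x axis) and in S2 cells (RNAi over mock, y axis) for the genes past the CPM filter. Members are filled red points, the 19 genes left out by symbol open circles, and dashed lines mark the lowest ratio in each list of 500 (0.78 and 0.19). Among the members, all in the upper right corner, Hml lies farthest right and Hsp23 highest, and 3 other genes lie outside the axes.

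Every library labelled RNAi lay above every control library for 75 of the 78 members in brain, where 45.5% of the 4755 genes did so, and for 76 members in S2 cells, where 23% did so. In both experiments at once this held for 73 members. The exceptions were MFS14 (FBgn0010651, listed in the files under an older symbol), Irk1 and Cat in brain and Arc1 and GstD9 in S2 cells. In edgeR's quasi-likelihood test across all genes, 74 members were among the 23.1% of 9197 genes called higher in brain, and 74 were among the 14.4% of 7567 genes called higher in S2 cells (Benjamini-Hochberg adjusted p under 0.05). The members not called were MFS14, Irk1, Cat and pyd3 in brain and CG5660, CG5793, GstD9 and pyd3 in S2 cells, which left 71 called in both. The same libraries chose the members, so these counts describe the choice and support nothing beyond it.

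The members with the highest smaller ratio of the pair were Hsp23, Ady43A, regucalcin, hoe1 and Pgm. Hsp23 (FBgn0001224, dm6 chr3L:9381882-9382765, plus strand), a small heat shock protein, had 88.33, 79.94 and 89.57 CPM in the brains labelled RNAi and 32.95, 55.25 and 54.20 CPM in control brains. In S2 cells it had 29.30, 18.47 and 24.17 CPM with the RNAi label and 13.77, 13.47 and 18.06 CPM in mock cells. The groups did not overlap in either experiment, although in S2 cells the lowest RNAi library was only just above the highest mock library. The means gave 1.81-fold in brain and 1.59-fold in S2 cells, the largest S2 ratio of the 78.

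Ady43A (FBgn0026602, chr2R:7243024-7245776, minus strand), an adenosine kinase, averaged 76.9 ± 7.76 CPM in the brains labelled RNAi and 26.1 ± 2.28 CPM in control brains (SD, n = 3 each). In S2 cells it averaged 25.3 ± 3.51 CPM with the RNAi label and 17.5 ± 1.49 CPM in mock cells (SD, n = 3 each). The difference exceeded the spread in both, at 2.95-fold and 1.45-fold. regucalcin (FBgn0030362, chrX:12012377-12017375, plus strand), a calcium-binding protein related to mammalian lactonases, had 339.1, 246.4 and 216.8 CPM in the brains labelled RNAi and 33.48, 62.44 and 55.50 CPM in control brains. Its S2 values were 273.6, 281.8 and 312.7 CPM with the RNAi label and 193.0, 219.1 and 202.3 CPM in mock cells, so that it reached similar CPM in both experiments under the RNAi label while its control level was lower in brain. The ratio of means was 5.30-fold in brain and 1.41-fold in S2 cells. hoe1, a membrane transporter, averaged 507.6 ± 19.7 CPM in the brains labelled RNAi and 275.6 ± 50.1 CPM in control brains (SD, n = 3 each), and 1.38-fold more in S2 cells with the RNAi label than in mock cells.

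**Figure D2:**
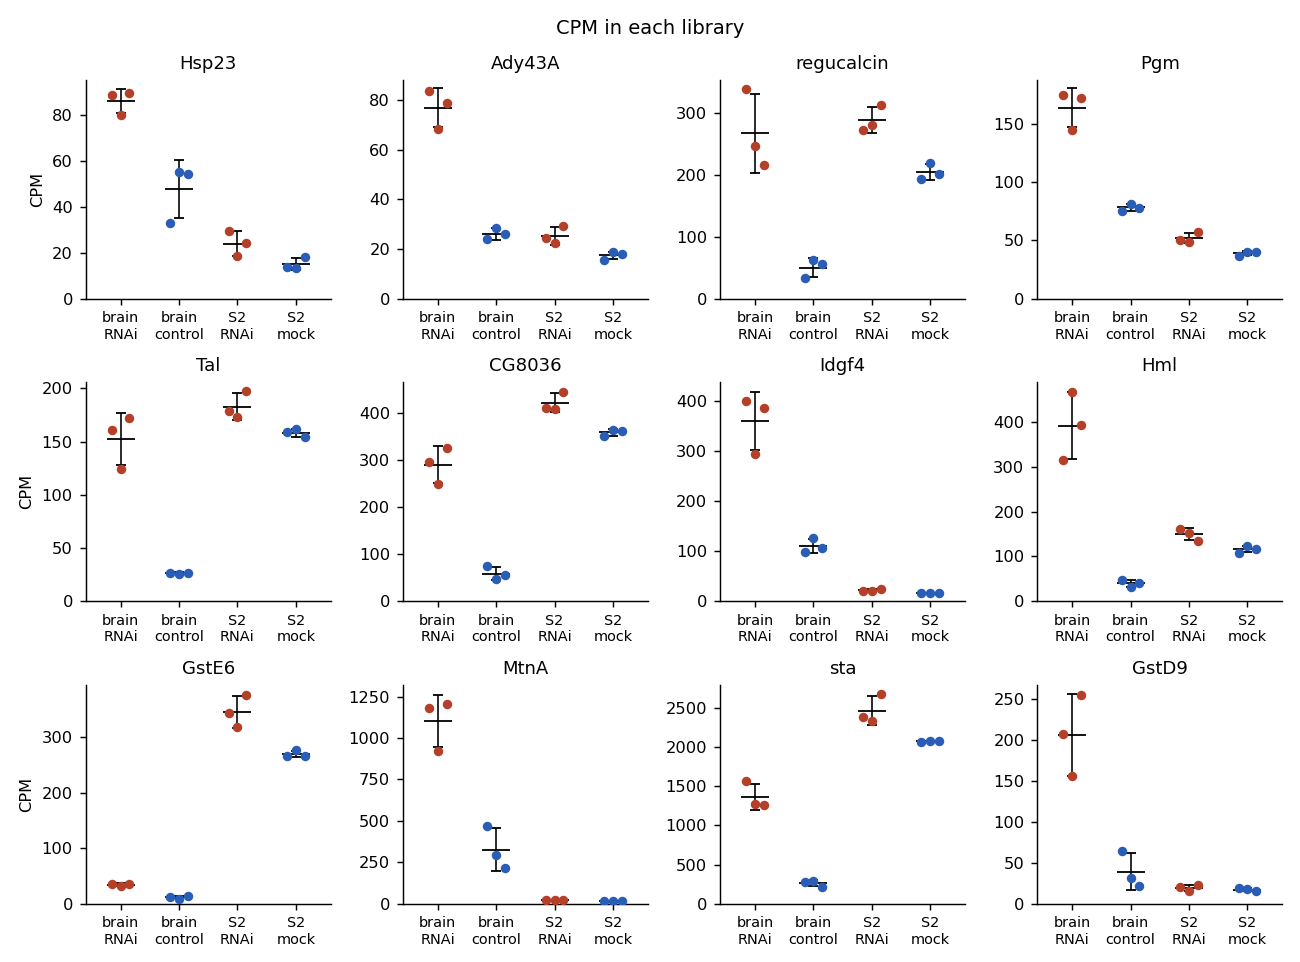
CPM of 12 members in each of the 12 libraries, in the order brain RNAi, brain control, S2 RNAi and S2 mock. Red points are libraries labelled Atx2 RNAi, blue points control or mock libraries, and black bars the mean ± SD (n = 3); each panel has its own axis from 0. The RNAi and control points separate in every panel except that of GstD9 in S2 cells.

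Of the 8 members in carbohydrate and NADPH metabolism, 3 belong to the nonoxidative pentose phosphate branch. Tal (FBgn0023477, chr2R:23940410-23942114, plus strand), transaldolase, had 160.7, 124.4 and 171.7 CPM in the brains labelled RNAi and 26.59, 25.22 and 26.92 CPM in control brains. Its brain ratio of 5.80-fold was the highest of the members after Hml. In S2 cells it had 178.4, 172.9 and 197.1 CPM with the RNAi label and 158.5, 161.8 and 154.2 CPM in mock cells, a 1.16-fold difference with no overlap. CG8036, a transketolase, averaged 289.9 ± 39.1 CPM in the brains labelled RNAi and 58.9 ± 14.3 CPM in control brains, 4.92-fold, and was 1.18-fold higher in S2 cells (SD, n = 3 each). Rpi, ribose 5-phosphate isomerase, was 2.38-fold higher in brain and 1.23-fold higher in S2 cells. The other 4 genes of the pathway, in a list put together after the values had been seen, were not among the members. In brain all 7 genes of the pathway were called higher by edgeR, among them Zw, the glucose 6-phosphate dehydrogenase, at 1.49 on the log2 scale (adjusted p = 0.00615) and Pgd at 1.71 (adjusted p = 6.31e-04). In S2 cells only the 3 members were called, and Zw (log2 fold change -0.02, edgeR adjusted p = 0.843) and Pgd (-0.05, adjusted p = 0.325) were not.

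Men and Idh, the NADP-linked malic enzyme and isocitrate dehydrogenase, also make NADPH. Men had 393.3, 293.1 and 392.3 CPM in the brains labelled RNAi, against 154.5, 181.9 and 161.4 CPM in control brains, and 228.8, 228.7 and 240.1 CPM in S2 cells with the RNAi label, against 180.8, 173.6 and 193.2 CPM in mock cells. Idh had 296.0, 231.4 and 328.0 CPM in the brains labelled RNAi, against 153.6, 188.0 and 150.5 CPM in control brains, and was 1.16-fold higher in S2 cells. Men-b, a second malic enzyme gene that is no member, was lower under the RNAi label in both experiments (log2 fold change -0.68, edgeR adjusted p = 0.00359 in brain, and -0.13, adjusted p = 0.0372 in S2 cells). Pgm, phosphoglucomutase, which joins glycogen and glucose 6-phosphate, averaged 163.8 ± 16.8 CPM in the brains labelled RNAi and 78.3 ± 3.07 CPM in control brains. In S2 cells Pgm averaged 52.2 ± 4.34 CPM with the RNAi label and 39.2 ± 1.84 CPM in mock cells (SD, n = 3 each). Mal-B2, a maltase, varied most among these genes, with 38.72, 30.79 and 62.27 CPM in the brains labelled RNAi and 22.74, 11.86 and 6.80 CPM in control brains.

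The 10 members in detoxification and redox chemistry had a median log2 ratio of 1.01 in brain and 0.27 in S2 cells. Among them were the glutathione transferase genes GstE6, GstE12 and GstD9. GstE6 had 35.72, 31.22 and 35.46 CPM in the brains labelled RNAi, against 12.27, 9.41 and 14.18 CPM in control brains, and 343.7, 318.4 and 376.8 CPM in S2 cells with the RNAi label, against 266.6, 277.3 and 266.5 CPM in mock cells. GstD9 had 206.3, 155.4 and 254.5 CPM in the brains labelled RNAi, against 64.46, 30.97 and 22.14 CPM in control brains, a 5.24-fold difference. In S2 cells its values overlapped, with 20.99, 15.54 and 22.31 CPM under the RNAi label and 18.68, 17.48 and 15.52 CPM in mock cells, and at log2 0.19 it was among the last members inside the S2 limit. These genes have close paralogs. Reads mapped to several places were tallied apart from the gene counts, so reads from stretches identical between paralogs are not in these values.

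Sod, the cytosolic superoxide dismutase, had 301.8, 248.2 and 296.8 CPM in the brains labelled RNAi, against 132.6, 162.5 and 151.2 CPM in control brains, and 176.4, 166.2 and 183.2 CPM in S2 cells with the RNAi label, against 145.2, 147.2 and 144.4 CPM in mock cells. Cat, catalase, overlapped in brain, with 265.4, 197.1 and 272.3 CPM under the RNAi label and 112.6, 105.8 and 200.8 CPM in control brains. MtnA, a copper-binding metallothionein, averaged 1103 ± 156 CPM in the brains labelled RNAi and 324.7 ± 129 CPM in control brains, and 23.2 ± 1.21 CPM in S2 cells with the RNAi label and 18.3 ± 1.02 CPM in mock cells (SD, n = 3 each). The other members here were Jheh2, a juvenile hormone epoxide hydrolase, CG18522, an aldehyde oxidase, CG4390, an S-formylglutathione hydrolase, and cl, which acts in the synthesis of eye pigments. Their brain ratios lay between 1.84-fold and 3.98-fold and their S2 ratios between 1.15-fold and 1.31-fold.

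Of 29 genes tested from a wider list of redox enzymes, 15 were called higher and 0 lower in brain, and 13 higher and 0 lower in S2 cells (edgeR). Beside these counts and those of the lists below, 23.1% of all genes tested were called higher in brain and 14.4% in S2 cells. The redox list holds 5 members, of which 4 were called in each experiment. The median log2 fold change of the 29 genes tested was 0.49 in brain and 0.18 in S2 cells. Over the 4755 genes it was 0.01 and -0.02, but only 16 genes of the list passed the CPM filter of that set. GstE9 was higher in brain (log2 fold change 3.49, edgeR adjusted p = 0.00106) and in S2 cells (0.21, adjusted p = 0.0139) but was below the CPM filter in control brains. GstD1 was higher in brain (0.86, edgeR adjusted p = 0.00462) and was not called in S2 cells (0.11, adjusted p = 0.113).

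The 9 members of the endoplasmic reticulum covered entry, processing and folding of secretory proteins. Their log2 ratio ranged from 0.78 to 1.79 in brain and from 0.19 to 0.28 in S2 cells, which was the narrowest S2 range but for that of the fatty acid genes. Tapdelta, a subunit of the translocon-associated complex, had 68.36, 60.11 and 50.40 CPM in the brains labelled RNAi, against 16.38, 19.76 and 15.56 CPM in control brains, and 216.0, 224.8 and 227.2 CPM in S2 cells with the RNAi label, against 189.9, 187.9 and 187.2 CPM in mock cells. Spase25, a signal peptidase subunit, averaged 34.7 ± 6.46 CPM in the brains labelled RNAi and 17.0 ± 1.21 CPM in control brains, and 104.1 ± 5.29 CPM in S2 cells with the RNAi label and 89.5 ± 1.82 CPM in mock cells (SD, n = 3 each). CG2918, the chaperone Grp170, averaged 265.1 ± 3.76 CPM in the brains labelled RNAi and 126.4 ± 12.7 CPM in control brains, with 1.15-fold in S2 cells (SD, n = 3 each). CG4164 (shv), a DnaJ cochaperone, was 2.61-fold higher in brain and 1.16-fold higher in S2 cells. The remaining members were boca, a chaperone of low-density lipoprotein receptors, Manf, a secreted factor of the stress response of this compartment, CG33303, a subunit of the oligosaccharyl transferase, CG8860, related to a Sec61 subunit, and CG15168 (EMC5) of the membrane protein complex. Among 22 genes tested from a list of translocation, signal peptidase and glycosylation genes, 17 were called higher in brain and 9 in S2 cells, and 0 were called lower in either (edgeR). The list holds 1 member, Spase25. Its median log2 fold change was 0.61 in brain and 0.11 in S2 cells.

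The 5 members of fatty acid metabolism were fabp, a fatty acid binding protein, colt, a carnitine carrier of the mitochondrial inner membrane, Thiolase and Arc42 of beta-oxidation, and CG5590, a hydroxysteroid dehydrogenase-like protein. Arc42, an acyl-CoA dehydrogenase, had 32.00, 27.77 and 30.93 CPM in the brains labelled RNAi, against 9.94, 13.29 and 13.17 CPM in control brains, and 95.97, 99.10 and 99.53 CPM in S2 cells with the RNAi label, against 84.70, 87.24 and 82.44 CPM in mock cells. Thiolase was 2.02-fold higher in brain and 1.17-fold higher in S2 cells. Of 10 carnitine shuttle and beta-oxidation genes tested, a list put together after the values had been seen, 8 were called higher in brain and 6 in S2 cells, and 0 lower in either. The list holds 3 members, which were chosen for high ratios.

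Nucleotide and amino acid metabolism held 5 members. Both su(r), dihydropyrimidine dehydrogenase, and pyd3, beta-ureidopropionase, act in the breakdown of uracil, at its first and last step. su(r) had 45.09, 41.48 and 47.47 CPM in the brains labelled RNAi, against 18.89, 28.31 and 28.73 CPM in control brains, and 15.88, 14.20 and 17.18 CPM in S2 cells with the RNAi label, against 12.96, 11.55 and 12.42 CPM in mock cells. pyd3 had 42.02, 54.63 and 35.25 CPM in the brains labelled RNAi, against 18.44, 30.90 and 26.48 CPM in control brains, and differed 1.16-fold in S2 cells. Neither experiment gave pyd3 a call, as stated above. CRMP, which the list of this pathway also holds, was not called in brain (log2 fold change 0.08, edgeR adjusted p = 0.600) and was lower in S2 cells (-0.21, adjusted p = 0.00539). The other members were Ady43A, awd, a nucleoside diphosphate kinase, and ppl, the H protein of the glycine cleavage system.

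The 13 members in transcription, translation and protein turnover came from many complexes, mostly 1 gene each. The highest of them in brain was sta (FBgn0003517, chrX:1481797-1483413, minus strand), which encodes ribosomal protein SA of the small subunit and stayed in the list because its symbol lacks the omitted prefixes. It had 1559, 1272 and 1263 CPM in the brains labelled RNAi, against 277.0, 291.6 and 219.0 CPM in control brains, and 2378, 2328 and 2671 CPM in S2 cells with the RNAi label, against 2065, 2072 and 2075 CPM in mock cells. Ip259, a ribosome assembly factor, overlaps RpS27A on the same strand in the annotation used here. Reads that fitted several genes were tallied as ambiguous, outside the gene counts, so the overlap may have taken reads from Ip259. Ip259 was 1.96-fold higher in brain and 1.28-fold higher in S2 cells.

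Prosalpha3, a proteasome core subunit, had 46.38, 39.79 and 39.65 CPM in the brains labelled RNAi, against 16.92, 24.29 and 25.54 CPM in control brains, and 204.9, 189.6 and 219.5 CPM in S2 cells with the RNAi label, against 164.8, 172.1 and 163.7 CPM in mock cells. It and Sem1 of the regulatory particle were the members among 33 proteasome genes tested, of which 16 were called higher in brain and 17 in S2 cells, with 0 lower in either (edgeR). eIF-2beta, a subunit of the initiation factor that brings the first transfer RNA to the ribosome, was 2.24-fold higher in brain and 1.14-fold higher in S2 cells, and was the member among 33 translation factor genes, of which 17 were called higher and 2 lower in brain and 13 higher and 4 lower in S2 cells. Its partner subunits eIF-2alpha and eIF-2gamma were higher in brain (log2 fold change 0.43 and 0.39, edgeR adjusted p = 0.0333 and 0.0161) and were not called in S2 cells (0.07 and -0.09, adjusted p = 0.273 and 0.0860). Rpb11 was the member among 11 tested RNA polymerase II subunits, of which 9 were called higher in brain and 3 higher and 1 lower in S2 cells. Only 6 genes of this list passed the CPM filter, and Rpb5 and Rpb8, called higher in both experiments, fell below it. The remaining members were MED7 of Mediator, Ssb-c31a, h, which encodes the repressor hairy, CG5660, a mitochondrial valine-tRNA ligase, nudC, CG17904 (Nubp1) of iron-sulfur cluster assembly, and Hsp23. Of 28 chaperone genes tested, 18 were called higher and 1 lower in brain and 10 higher and 2 lower in S2 cells, and the small heat shock genes Hsp26 (log2 fold change 0.80 in brain and 0.50 in S2 cells, edgeR adjusted p = 0.00612 and 0.00477) and Hsp27 (1.0 and 0.61, adjusted p = 0.0101 and 0.00129) were called higher in both but fell below the CPM filter.

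**Figure D3:**
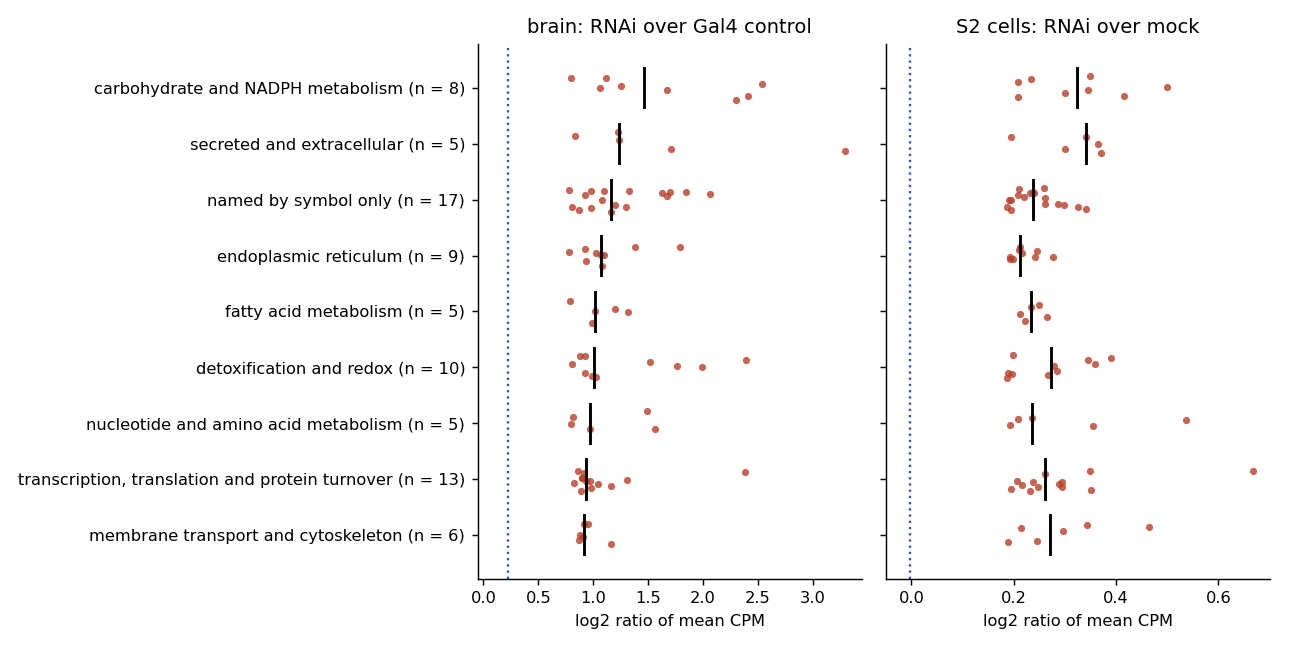
Log2 ratio of mean CPM of each member by role, in brain (left panel) and in S2 cells (right panel), with their own x axes. Red points are genes, black bars group medians and the dotted blue line the median of all 4755 genes (0.22 and -0.003); roles run by their brain median, from 1.46 in carbohydrate and NADPH metabolism to 0.91 in membrane transport and cytoskeleton. The roles overlap widely, and the vertical scatter of points carries no value.

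The 5 secreted or extracellular members included the largest brain ratio. Hml (FBgn0029167, chr3L:13846054-13860001, plus strand), hemolectin, a clotting protein made by hemocytes, had 316.1, 466.1 and 394.1 CPM in the brains labelled RNAi, against 47.00, 31.54 and 41.61 CPM in control brains, which is 9.79-fold. In S2 cells it had 162.3, 152.2 and 134.9 CPM with the RNAi label and 108.6, 122.7 and 117.6 CPM in mock cells, 1.29-fold with no overlap. Idgf4 and Idgf3 belong to the imaginal disc growth factors, secreted chitinase-like proteins. Idgf4 had 400.6, 295.1 and 387.1 CPM in the brains labelled RNAi, against 98.84, 127.0 and 106.4 CPM in control brains, and 21.48, 19.64 and 24.97 CPM in S2 cells with the RNAi label, against 16.67, 16.94 and 17.51 CPM in mock cells. All 6 genes of this family, a list also made after the values had been seen, were called higher in brain and 4 in S2 cells (edgeR), and Idgf2, at 2.48 on the log2 scale in brain (adjusted p = 2.33e-04), was not called in S2 cells (-0.003, adjusted p = 0.974). Ilp6, an insulin-like peptide of the fat body, averaged 55.5 ± 0.897 CPM in the brains labelled RNAi and 23.7 ± 4.85 CPM in control brains, and was 1.27-fold higher in S2 cells (SD, n = 3 each). 26-29-p, a cathepsin-like protease, was 2.34-fold higher in brain and 1.15-fold higher in S2 cells.

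Marker genes of other cell types moved with the brain label. Of 9 fat body markers 7 were called higher and 1 lower under the RNAi label, and their summed level was 26650, 23300 and 11750 CPM in the brains labelled RNAi, against 2057, 1243 and 1416 CPM in control brains. Of 8 hemocyte markers tested, Hml included, 4 were called higher, with sums of 1629 to 1888 CPM in the brains labelled RNAi and 773.8 to 1837 CPM in control brains. Among 14 neuron markers 12 were called lower, with sums of 15860 to 17840 CPM in the brains labelled RNAi and 23670 to 26830 CPM in control brains. Muscle markers were called lower for 6 of 7 genes, photoreceptor markers higher for 5 of 8, and glial markers higher for 1 and lower for 5 of 9. The part of these shifts in the brain ratios of the members was not tested, and in such bulk samples fewer cells of a type and less RNA per cell cannot be told apart. In S2 cells the fat body sum was 668.0 to 803.8 CPM under the RNAi label and 893.1 to 1099 CPM in mock cells, most of it from the fatty acid synthase gene CG3523 (633.0 CPM on average with the RNAi label and 869.2 CPM in mock cells). Of 3 markers tested there 1 was called higher and 1 lower, with Lsp2, a defining fat body gene, listed at 0 in all 6 libraries. Hemocyte markers, which S2 cells express, summed to 1449 to 1489 CPM in S2 cells with the RNAi label and to 1311 to 1342 CPM in mock cells, 5 of 8 called higher.

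The 6 members in membrane transport and the cytoskeleton were hoe1, MFS14, a transporter of the major facilitator type, Irk1, an inwardly rectifying potassium channel, Ir76a, an ionotropic receptor, tsr, the actin-severing protein cofilin, and Arc1, a capsid-like protein of retrotransposon origin. tsr had 115.0, 98.15 and 96.34 CPM in the brains labelled RNAi, against 58.10, 57.62 and 53.40 CPM in control brains, and 1926, 1869 and 1979 CPM in S2 cells with the RNAi label, against 1600, 1688 and 1690 CPM in mock cells. Arc1 had 55.40, 38.88 and 38.47 CPM in the brains labelled RNAi, against 24.17, 25.94 and 20.41 CPM in control brains, whereas its S2 values of 755.3, 625.2 and 821.4 CPM under the RNAi label overlapped the mock values of 681.0, 645.1 and 530.6 CPM. Of 17 genes of the actin and tubulin list tested, 8 were called higher and 0 lower in brain, and 4 higher and 5 lower in S2 cells (edgeR). A further 17 members are given by symbol only, with brain ratios of 1.72-fold to 4.16-fold. Of these CG5390 was highest in brain, with 79.52, 66.02 and 78.82 CPM in the brains labelled RNAi and 15.67, 19.83 and 18.38 CPM in control brains, and CG5895 highest in S2 cells, with 14.16, 13.79 and 13.90 CPM under the RNAi label and 11.35, 10.09 and 11.61 CPM in mock cells.

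Some lists held no member. The vacuolar ATPase genes had 0 of 18 called higher and 13 lower in brain, and 2 of 17 called higher and 3 lower in S2 cells. The snoRNP and ribosome assembly genes were called higher for 13 of 17 in brain, but in S2 cells 0 were called higher and 3 lower. Only 8 of these 17 genes passed the CPM filter and could have been members. For the respiratory chain, 8 of 9 tested genes of complex IV were called higher in S2 cells, against 1 of 11 in brain, and for complex III these counts were 6 of 8 and 0 of 8 (edgeR). The difference between the experiments was not tested.

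The members had short transcripts, a property the choice did not use. The longest annotated transcript had a median of 1438 nt in the 78 members and of 2449.5 nt in the 4732 of the 4755 genes with an annotation. The longest coding sequence among a gene's transcripts had a median of 946.5 nt in the members and of 1593 nt in the 4713 protein-coding genes past the filter. The longest 3′UTR among a gene's transcripts had medians of 134 nt and 426 nt in the same sets. With the genes divided by transcript length in 4 equal groups, the shortest group held 45 members, the second 19, the third 11 and the longest 3. Length also went with the ratios of all genes. Their median log2 ratio in brain was 0.44, 0.35, 0.18 and -0.08 from the shortest to the longest group, and in S2 cells 0.11, 0.01, -0.04 and -0.07. The part of transcript length, or of RNA quality, in the members' ratios was not tested. The members lay on X (9 genes), 2L (18), 2R (18), 3L (16) and 3R (17), with 0 on chromosome 4, which held 48 of the 4732 annotated genes. Annotated genes on the same strand overlapped 7 members (8.97%, against 7.35% of all genes), among them Ip259 with RpS27A, CG33303 with rho-5 and fabp with sea.

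**Figure D4:**
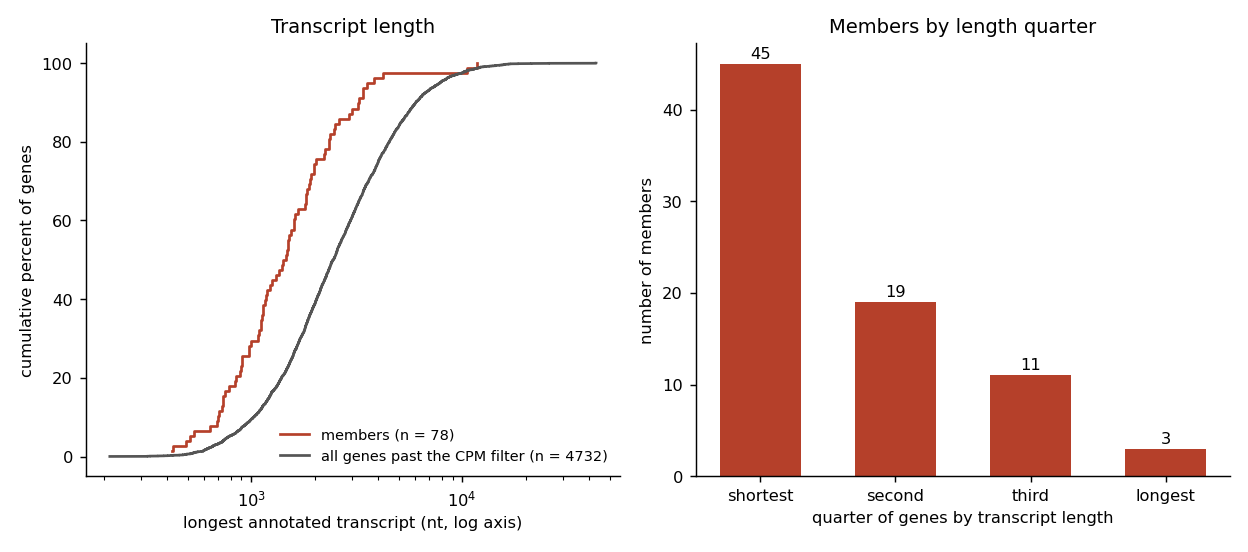
Left panel, cumulative percent of genes against the length of the longest annotated transcript (nt, log axis) for the 78 members (red) and the 4732 annotated genes past the CPM filter (grey). Right panel, number of members in each of 4 equal groups of these genes by length (45, 19, 11 and 3); the red curve lies left of the grey one over most of its range.

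Levels without Atx2 RNAi were compared between Gal4 control brains and mock S2 cells, which had received double-stranded RNA against GFP. This contrast was not the one that chose the members, but its libraries were the denominators of both ratios, and tissue, cell line and library batch cannot be told apart in it. Of the 78 members, 19 were called higher and 51 lower in control brain than in mock S2 cells, and 8 were not called (edgeR adjusted p under 0.05). Over all 9221 genes tested 45.5% were called higher and 42.7% lower, and among the 4755 genes past the CPM filter 39.3% and 45.4%. The median log2 fold change was -0.97 in the members and -0.12 in the filtered genes. By transcript length, it was -1.58, -0.16, -0.77 and -0.88 in the members of the 4 groups, shortest first, and -0.51, -0.35, -0.02 and 0.59 in all their genes, so that in the second group the members lay above the genes.

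The members ranged from 4.82 to -4.22 in this contrast. MtnA had the largest log2 fold change (4.82, edgeR adjusted p = 2.52e-06), at 467.6, 291.1 and 215.4 CPM in control brains and 18.84, 17.09 and 18.87 CPM in mock S2 cells. It was followed by CG5895 (4.20, edgeR adjusted p = 1.02e-07) and hoe1 (4.15, adjusted p = 5.87e-08). At the other end tsr (-4.22, edgeR adjusted p = 6.64e-09), Arc1 (-4.06, adjusted p = 4.70e-08) and GstE6 (-3.84, adjusted p = 1.47e-07) were far lower in control brain. Roles split in the same contrast. All 9 endoplasmic reticulum members and 4 of the 5 fatty acid members were lower in brain, the fifth, fabp, not being called. In nucleotide and amino acid metabolism su(r), pyd3 and Ady43A were higher. There awd was lower (-1.944, edgeR adjusted p = 1.74e-07) and ppl was not called (-0.115, adjusted p = 0.283). Of the 10 redox members 5 were higher and 5 lower, with MtnA, GstD9, GstE12, Sod and Cat higher and GstE6, CG4390, CG18522, cl and Jheh2 lower. This split depended on the scaling. Without normalization factors GstE12 (0.07, edgeR adjusted p = 0.438), Sod (0.03, adjusted p = 0.735) and Cat (-0.05, adjusted p = 0.847) were not called, which left 2 of the 10 redox members higher and 5 lower. Cat was not called with upper-quartile factors either (0.18, edgeR adjusted p = 0.488), nor Jheh2 by DESeq2 (-0.002, adjusted p = 0.984). Over all members 12 were called higher and 57 lower without factors, where the median of the filtered genes was -0.77 in place of -0.12.

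**Figure D5:**
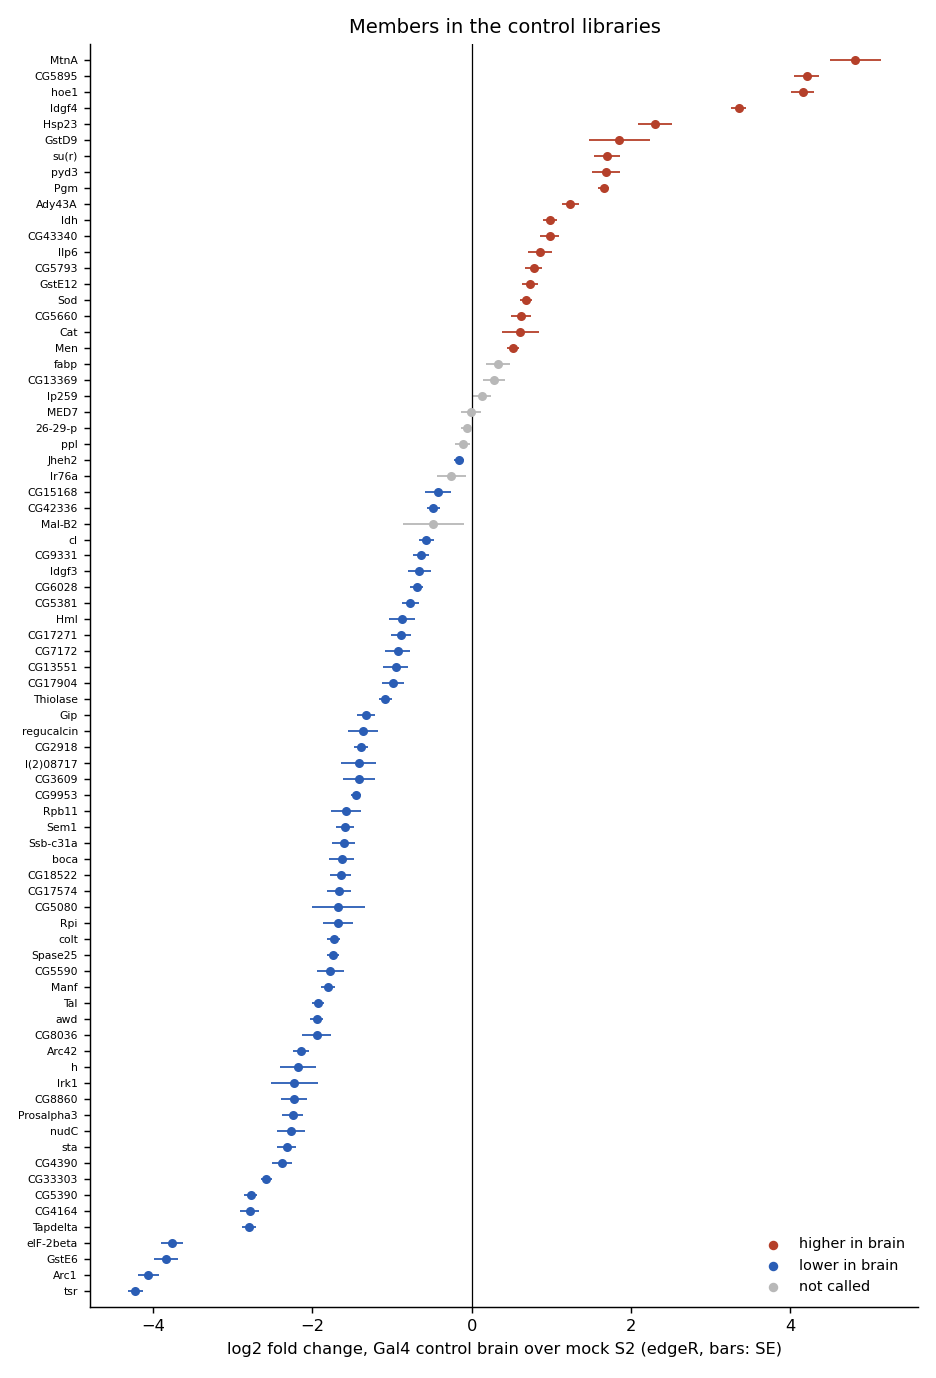
Log2 fold change of each member, Gal4 control brain over mock S2 cells, as points with SE bars (edgeR, n = 3 libraries a group), sorted from highest at the top to lowest. Red marks the 19 members called higher in brain, blue the 51 called lower and grey the 8 not called; the values run from 4.82 (MtnA) to -4.22 (tsr).

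The TRIBE libraries, which the choice did not use, were searched for edits in these transcripts. By the study's methods the WT libraries were not strand-specific, whereas those of the domain mutants were, with shorter reads, another sequencing kit and another mapping setting. Construct and sequencing run therefore cannot be told apart between the WT group and the others. A position counted when it was listed in both libraries of a group, each listing needing at least 20 reads and an edit of at least 15%. In the Atx2 WT group 0 of 78 members had such a position, and 3.01% of the 4755 genes had one. With so few genes and no test, these counts do not show whether the members differ from all genes. In the other groups the members counted were 1 for the Lsm deletion (5.3% of all genes), 3 for the LsmAD deletion (2.17%), 1 for the deletion of the middle disordered region (1.7%), 0 for that of the C-terminal one (0.526%) and 1 for the fragment of Lsm and LsmAD alone (0.526%). The members had a median of 23.58 CPM in Gal4 control brains, against 48.54 CPM in all genes past the filter, and the part of level or transcript length in these counts was not tested.

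The 3 members with a common position were Gip, CG17271 and CG33303, named after their sites had been seen, and each position lay in the coding sequence. In Gip (chrX:10328877-10329872, minus strand) position 10329253 was edited at 22.05% and 18.55% in the Lsm deletion libraries, at 18.15% and 35.05% in the LsmAD deletion libraries and at 24.6% and 21.7% in those of the Lsm and LsmAD fragment. It was also listed at 24.1% in 1 library without the middle region, and in neither WT library. In CG17271 (chr3R:20819129-20821848, minus strand) position 20820786 was edited at 35.25% and 20% without LsmAD and at 38.4% and 25.5% without the middle region, and it was also listed in 1 library each of the Lsm deletion (46.45%), the fragment (33.6%) and the C-terminal deletion (17.75%). In CG33303 (chr2L:10373369-10375757, minus strand) position 10374570 was edited at 17.3% and 16.7% without LsmAD. The read numbers behind these values were not used here. In the WT libraries the only listing was a position of the Ir76a 3′UTR, at 15.4% in replicate 2. Ir76a was 2.24-fold higher in brain and 1.23-fold higher in S2 cells under the RNAi label.

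At the edges of the choice the values changed little. The last members inside the brain limit were CG15168 (log2 ratio 0.779) and CG5381 (0.780), and the first genes outside it that passed in S2 cells were CG32032 (0.777) and Atg3 (0.775). In S2 cells GstD9 and CG9331 (both 0.187) were the last inside and Ppn (0.186) and CG8209 (0.184) the first outside. The spread between libraries was wider than these steps, with a median coefficient of variation over the members of 12.6% in the brains labelled RNAi and 17.0% in control brains, and of 4.98% in S2 cells with the RNAi label and 3.70% in mock cells. When each of the 12 libraries was left out in turn, 38 members stayed in all 12 lists, among them Ady43A, regucalcin, hoe1, Pgm, Hml, Idgf4, GstE6, MtnA, Men, Sod, CG8036 and sta, whereas Hsp23, Tal, GstD9 and Cat dropped out of at least 1.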

How the data were processed

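The authors mapped the RNA-seq reads with STAR to dm6 and counted them per gene with HTSeq, with the setting for reverse-stranded libraries, and they deposited whole-number counts for each library. The annotation used for counting is not given in the sources used here. For TRIBE the authors mapped reads with TopHat2 and deposited, for each library, positions with the percent of reads edited. The HTSeq summary rows (8.23% to 22.01% of reads in no feature) were left out of library totals.

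CPM was computed from total gene counts, and the members and gene lists were chosen with earlier results of these data known. Groups followed the labels. Differences in counts were assessed in R 4.3.3 with the edgeR 4.0.16 package (quasi-likelihood test, TMM factors, filterByExpr, Benjamini-Hochberg adjustment, threshold 0.05), each contrast on its own 6 libraries. The fits were tested on simulated counts with known log2 changes of size 1 or 2. Of the changes of size 1 they recovered 71.7% in brain, 93.9% in S2 cells and 84.7% between the control groups. Smaller changes, which include all S2 ratios of the members, were not simulated. Alternatives were DESeq2 1.42.0, other scalings and filters, a replicate block and leaving out each library. Transcript features came from Ensembl release 115, which matched all 78 members, 19 of them through a synonym in RefSeq. GC content, promoter motifs and protein features were not analysed here.

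Genes were named by a rule: the 10 members with the highest smaller ratio, the highest 3 by ratio in each experiment and by control CPM, up to 3 of each list, the 3 highest and 3 lowest between the control groups, and the neighbours of each rank limit. Other members and genes outside the rule, and the role groups, were chosen after their values had been seen.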

Additional observations from a re-analysis of the deposited data

How the results depend on the processing

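The number of genes chosen depended on the limits of the rule. A rank limit of 300 gave 31 genes, a limit of 700 gave 148 (all 78 among them), and a minimum mean of 20 CPM gave 118, of which 38 were among the 78. A minimum of 5 CPM gave 63 genes (37 shared), median CPM gave 78 (53 shared), and TMM-scaled CPM or the edgeR fold change gave 79 (76 shared). Leaving out a library gave 75 to 84 genes, with 67 to 77 shared. Over all genes edgeR called 2120 higher and 1712 lower in brain, and library size alone gave 3119 and 935 and DESeq2 1803 and 2106. Without a brain library the higher calls ran from 1388 to 2154, the lowest without brain RNAi replicate 1, where 61 members were called. In S2 cells edgeR called 1091 higher and 1116 lower, DESeq2 613 and 801, and upper-quartile factors 1438 and 788; DESeq2 called 61 members. Between control brain and mock S2 cells the counts were 4196 and 3933, with 3369 and 5023 by library size alone, 3629 and 4681 with upper-quartile factors and 5389 and 3670 by DESeq2. There Atg3, just outside the brain limit, was 0.22 and not called, and was -0.43 by library size alone and -0.21 with upper-quartile factors. With a position in either WT library, 1 member had an edit (6.08% of all genes), against 0 in both (3.01%). The causes of these changes were not tested.

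The labels share replicate numbers, but same-numbered libraries did not deviate together (r = -0.128, -0.207 and -0.064 in brain, 0.05, -0.07 and -0.04 in S2 cells). With 3 libraries a group, these values cannot show whether same-numbered libraries were prepared together. A replicate block gave 1641 higher and 1210 lower in brain, 961 and 965 in S2 cells, and 4166 and 3922 between the control groups, with 72 and 71 members called in brain and S2 cells.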
